A study of Mus musculus with 20 samples.

Results

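Tumour-bearing bladders of one group of genetically engineered mice differed widely from one another in gene expression, and these differences are described here across the 7 arrays titled tumour 1 to 7, of 20 arrays in the series. All 7 carry the same labels, so no condition separates them and no contrast was tested between them. The mice were on the FVB/N background and are called CKO in the labels. They carried floxed alleles, Rb1 (the retinoblastoma gene) among them, and lacked p107 (Rbl1); the further floxed alleles of the model are not described here. An adenovirus coding for Cre recombinase, which deletes floxed DNA, was placed in the bladder to start tumours, and the labels name neither the promoter that drives Cre nor the cell type it reaches. They also give no age, sex, histology or time after inoculation, and leave unsaid whether the arrays are of different animals. Differences between the arrays may therefore be technical. The p-values below test only the pairing of gene list means over these arrays, treated as exchangeable, and do not extend to animals. Total RNA was extracted with a kit for formalin-fixed, paraffin-embedded tissue and hybridised to an Affymetrix whole-transcript array. The values are the deposited RMA levels. Their log base is not written in the sources used here; it is taken as 2, since RMA gives log2 values. The table gave 30132 genes, of which 8091 had a mean level of at least 6 over the 7 arrays and were ranked by their standard deviation (SD). The remaining 22041 dimmer genes were not ranked.

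The bladder is lined by the urothelium, whose luminal umbrella cells cover their surface with plaques of uroplakin proteins and express simple-epithelial keratins. Around it lie fibroblasts, which lay down collagen and fibronectin, and the detrusor, a thick layer of smooth muscle built on smooth muscle actin and myosin. Bladder tumours can lose luminal features and gain mesenchymal, inflammatory or cell-cycle expression. In bulk RNA of this kind, fewer cells of a type and less RNA per cell cannot be told apart.

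Tumour bladders 3, 4 and 5 lay closer to the gene means than the other 4 arrays, with tumour bladder 2 nearest to them. Over the 662 genes with an SD of at least 1, called wide genes here, the median distance of a value from the gene's own mean was 0.38, 0.38 and 0.43 log2 on these 3 arrays. It was 1.64, 0.81, 1.46 and 1.39 on tumour bladders 1, 2, 6 and 7. Wide genes were selected by their SD over these same arrays, which favours the arrays with extreme values. Over all 8091 genes this distance was 0.156, 0.161 and 0.184 on arrays 3, 4 and 5. On tumour bladders 1, 2, 6 and 7 it was 0.422, 0.228, 0.410 and 0.261. The mean of arrays 3, 4 and 5 lay between the lowest and the highest of the other 4 in 656 of the 662 wide genes, and within 0.5 of their mean in 441. The median SD of a wide gene was 1.62 over tumour bladders 1, 2, 6 and 7 and 0.547 over 3, 4 and 5. Over those 3 arrays alone 112 of the 8091 genes reached an SD of 1, against 1158 over the other 4. In 16588 dim rows (mean 4.5 to 5) the SD across rows was 0.325, 0.326 and 0.347 on arrays 3, 4 and 5, and tumour bladder 1 was close to them at 0.314, while arrays 2, 6 and 7 lay between 0.238 and 0.245. Most of the variation among the 7 arrays is therefore variation among 4 of them, and the part of this difference in the results was not tested.

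The array median over all rows was 5.48, 5.35, 5.33, 5.32, 5.30, 5.12 and 5.25 on tumour bladders 1 to 7. Centring each array on its median therefore moves tumour bladder 6 up the most and tumour bladder 1 down the most. The arrays said below to be highest in a list held that place for luminal, smooth muscle, mesenchymal, inflammatory and proliferation genes as deposited, with centring and with renewed quantile normalisation. Places that changed are given where they occur. Rb1 was at 5.44, 5.68, 6.17, 5.85, 5.93, 6.22 and 6.45, and Rbl1 at 6.81, 7.13, 6.50, 6.53, 6.69, 6.56 and 6.15. The position of their probes relative to the engineered segments is not given in the sources used here, so these levels check no genotype. The labelled tissue was checked with the uroplakins, which were near the array median on tumour bladder 6: Upk1a was at 5.48, Upk2 at 4.79, Upk3a at 4.73 and Upk3b at 4.83, with Upk1b at 6.49. The label of that array as bladder therefore has little support from uroplakins other than Upk1b, and its values are given by the label. There the 5 uroplakins averaged 5.26 and the 5 luminal keratins 6.09, against an array median of 5.12. On tumour bladder 2 these means were 6.70 and 5.67, against 5.35.

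Of the 8091 genes, 662 (8.18%) had an SD of at least 1, and 44 had an SD of at least 2; the median SD was 0.40. At the threshold, among the genes reported by name, Col1a1 and Rpl4 were just inside with SDs of 1.01, with Hif1a nearest to it, and Ost4 (0.999), Serinc3 (0.997) and Slitrk6 (0.997) were just outside. The wide genes were seldom highest on tumour bladders 3, 4 or 5 (3, 5 and 5 genes). Tumour bladder 7 was highest in 303 of them, tumour bladder 6 in 255, tumour bladder 1 in 66 and tumour bladder 2 in 25. Tumour bladder 1 was lowest in 442, tumour bladder 6 in 95, tumour bladder 5 in 43 and tumour bladder 2 in 36. The same arrays led among all 8091 genes, where 39.2% were highest on tumour bladder 6 and 24.0% on tumour bladder 7, and 47.0% were lowest on tumour bladder 1. Tumour bladders 1 to 5 were highest in 11.8%, 12.6%, 4.38%, 5.13% and 2.98% of them, and tumour bladders 2 to 7 lowest in 6.79%, 7.56%, 5.92%, 12.4%, 12.2% and 8.13%. Only 157 of the wide genes are reported by name, since 505 are predicted genes, pseudogenes, small RNAs or antigen receptor segments. Of the 157, tumour bladder 7 was highest in 90 and tumour bladder 6 in 64, and tumour bladder 1 was lowest in 88 and tumour bladder 6 in 41.

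**Figure D1:**
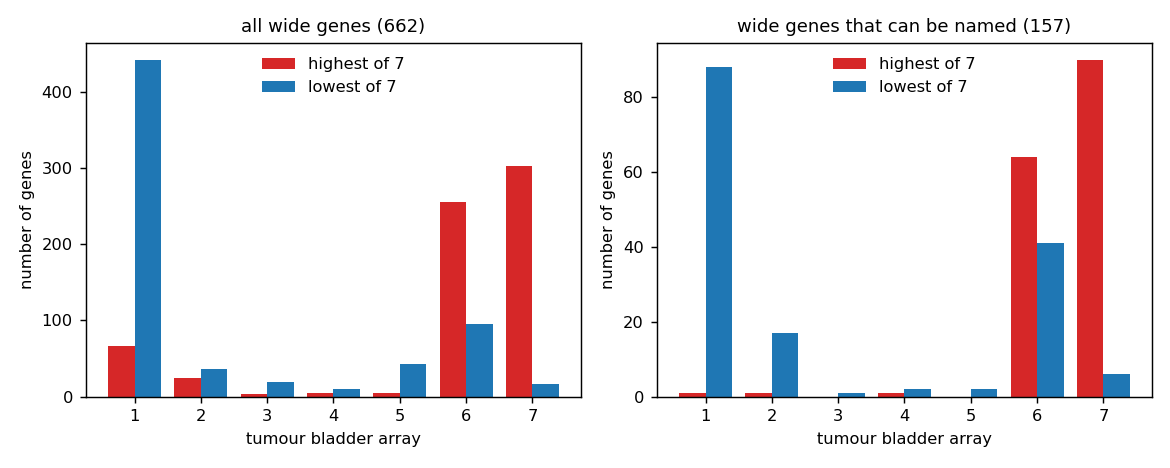
Number of wide genes (SD of at least 1 over 7 arrays, mean level of at least 6) for which each tumour bladder array was the highest (red) or the lowest (blue) of the 7, for all 662 wide genes on the left and the 157 reported by name on the right. Tumour bladders 6 and 7 hold most of the highest values and tumour bladder 1 most of the lowest.

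Luminal and squamous epithelial genes, contractile genes and a smaller group of inflammatory and matrix genes made up most of the 30 named genes with the largest SD. Of these 30, 22 were highest on tumour bladder 7, 7 on tumour bladder 6 and 1, Cxcl13, on tumour bladder 2; 18 were lowest on tumour bladder 6, 6 on tumour bladder 1, 4 on tumour bladder 2 and 2 on tumour bladder 7. Sptssb, a subunit of the enzyme that starts sphingolipid synthesis, had the largest SD among named genes, 3.03, and was at 9.58, 6.03, 8.45, 8.71, 8.67, 5.52 and 14.78 on tumour bladders 1 to 7. Ivl (involucrin of the cornified envelope) was at 10.05, 5.18, 7.93, 7.70, 7.99, 5.02 and 13.34. Both were high on tumour bladder 7, next highest on tumour bladder 1, and lowest on tumour bladders 6 and 2. Sprr2b, another cornified envelope precursor, followed that order at the top and had its lowest value on tumour bladder 2, at 8.37, 4.32, 6.83, 7.27, 7.14, 6.02 and 12.91. Gsdmc2, a gasdermin gene, was nearly as high on tumour bladder 1 as on tumour bladder 7, at 11.18, 5.82, 7.36, 7.37, 7.20, 5.10 and 11.35. Gsdmc3, a related gasdermin, had the same order at its ends, 9.07 on tumour bladder 1 and 9.58 on tumour bladder 7, with 4.67 on tumour bladder 6. Gstm1, a glutathione transferase, was at 7.90, 6.13, 8.66, 9.39, 8.82, 5.55 and 13.48. Here tumour bladder 1 was below arrays 3, 4 and 5.

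**Figure D2:**
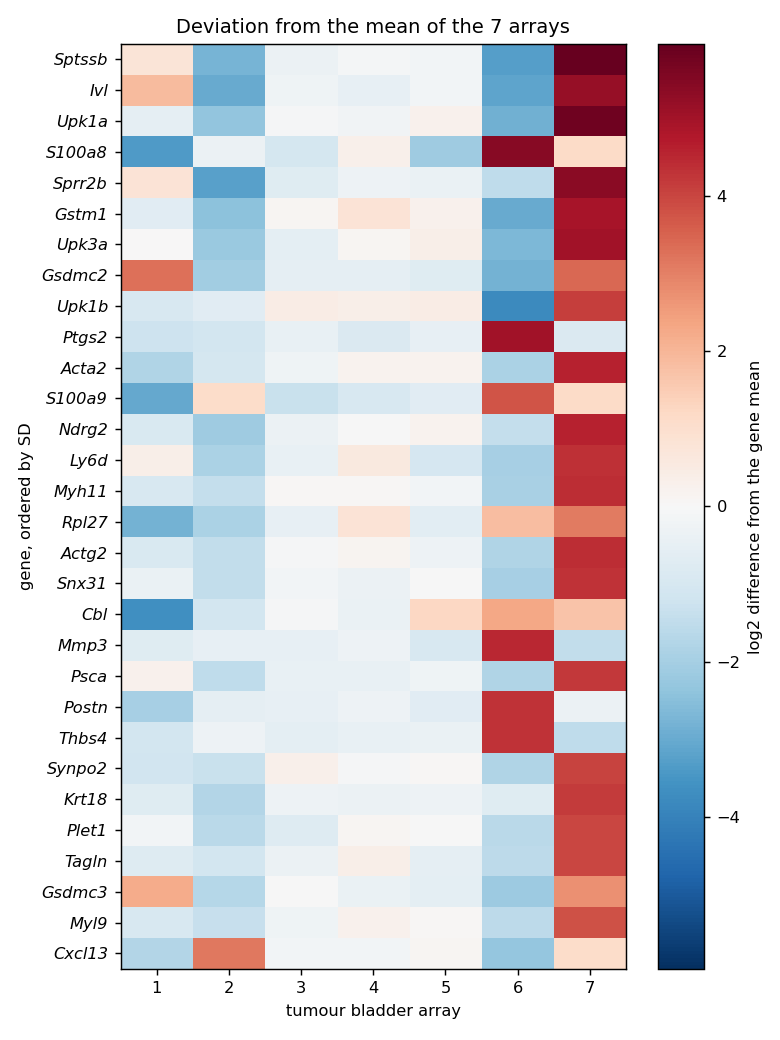
Deviation of each of the 30 named genes with the largest SD from its own mean over the 7 tumour bladder arrays, in log2 units (red higher, blue lower), ordered by SD from the top. Columns 3, 4 and 5 are paler than the others in most genes (not in S100a8 on array 5), column 7 is red in the epithelial and contractile genes, and column 6 is red in S100a8, Ptgs2, S100a9, Rpl27, Cbl, Mmp3, Postn and Thbs4.

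Luminal urothelial genes and smooth muscle genes had the widest list means of the 5. The luminal SD was the larger as deposited, but with the median over members it was 0.857 against 1.03 for smooth muscle, and without tumour bladder 6 it was 1.01 against 1.03. The mean of the 24 measured members (of 25 listed; Gata3 was not matched to a row of its own) was 6.44 ± 1.04 log2 (SD, n = 7), and it ran from 5.36 on tumour bladder 6 to 8.59 on tumour bladder 7. The other arrays were at 6.56, 5.67, 6.28, 6.29 and 6.32 (tumour bladders 1 to 5). Of the 24, 19 had a mean of at least 6, and 10 of those were wide (52.6%, against 8.18% of all genes); their median SD was 1.03, against 0.40. Of the 19, 17 were highest on tumour bladder 7 (24.0% of all genes were) and 13 lowest on tumour bladder 6 (12.2%). Lower by at least 1 than the median of the other arrays were 10 of the 19 on tumour bladder 6 (3.14% of all genes) and 7 on tumour bladder 2 (3.72%). Over tumour bladders 1, 2, 6 and 7 alone the SD of the list mean was 1.45, and over 3, 4 and 5 it was 0.0209. Without tumour bladder 7 it was 0.460.

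The uroplakins varied most. Upk1a, which pairs with Upk2 in the plaque, was at 7.84, 6.01, 8.31, 8.14, 8.60, 5.48 and 14.18 on tumour bladders 1 to 7. Upk1b, the partner of Upk3a, was at 9.31, 9.58, 10.72, 10.64, 10.73, 6.49 and 14.41. All 5 uroplakins were highest on tumour bladder 7 and lowest on tumour bladder 6, and their mean ran from 5.26 to 11.61. Upk3a was at 7.41, 5.19, 6.80, 7.50, 7.76, 4.73 and 12.39, and Upk2 at 5.94, 5.22, 6.38, 5.75, 6.24, 4.79 and 9.55. The difference between tumour bladder 7 and the median of the other 6 was 6.19 for Upk1a and 5.28 for Upk3a. On tumour bladder 6, Upk1a lay 2.74 and Upk1b 4.19 below the median of the others.

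Among the keratins of simple epithelium, Krt18 was at 6.10, 5.09, 6.51, 6.49, 6.51, 6.11 and 11.00, and its partner Krt8 at 6.70, 5.73, 6.52, 6.30, 6.49, 6.46 and 8.84. Krt7 ranged only from 6.22 to 7.88 and Krt19 from 6.21 to 7.89. On all 4 the lowest array was tumour bladder 2 rather than tumour bladder 6, where Krt8 lay within the range of arrays 3, 4 and 5. Transcription factors of the luminal program moved less: Pparg, a nuclear receptor of urothelial differentiation, ran from 5.01 on tumour bladder 6 to 7.26 on tumour bladder 7, and Grhl3, a factor of barrier epithelium, from 5.18 to 7.26 on the same arrays. Foxa1 stayed between 3.86 and 4.76, below all array medians, so its differences were not read. Of the other luminal genes, Snx31, a sorting nexin found with uroplakins, was at 5.93, 4.87, 6.17, 6.00, 6.32, 4.35 and 10.65, and Psca, a surface antigen, at 7.01, 5.26, 6.33, 6.33, 6.51, 4.997 and 11.01. Cldn4, a tight junction claudin, broke the order, since tumour bladder 1 was highest at 8.06, with tumour bladder 7 at 7.91 and the others between 5.58 and 7.05. Cldn7 was also highest on tumour bladder 1, at 6.60, within a narrow range down to 5.80.

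**Figure D3:**
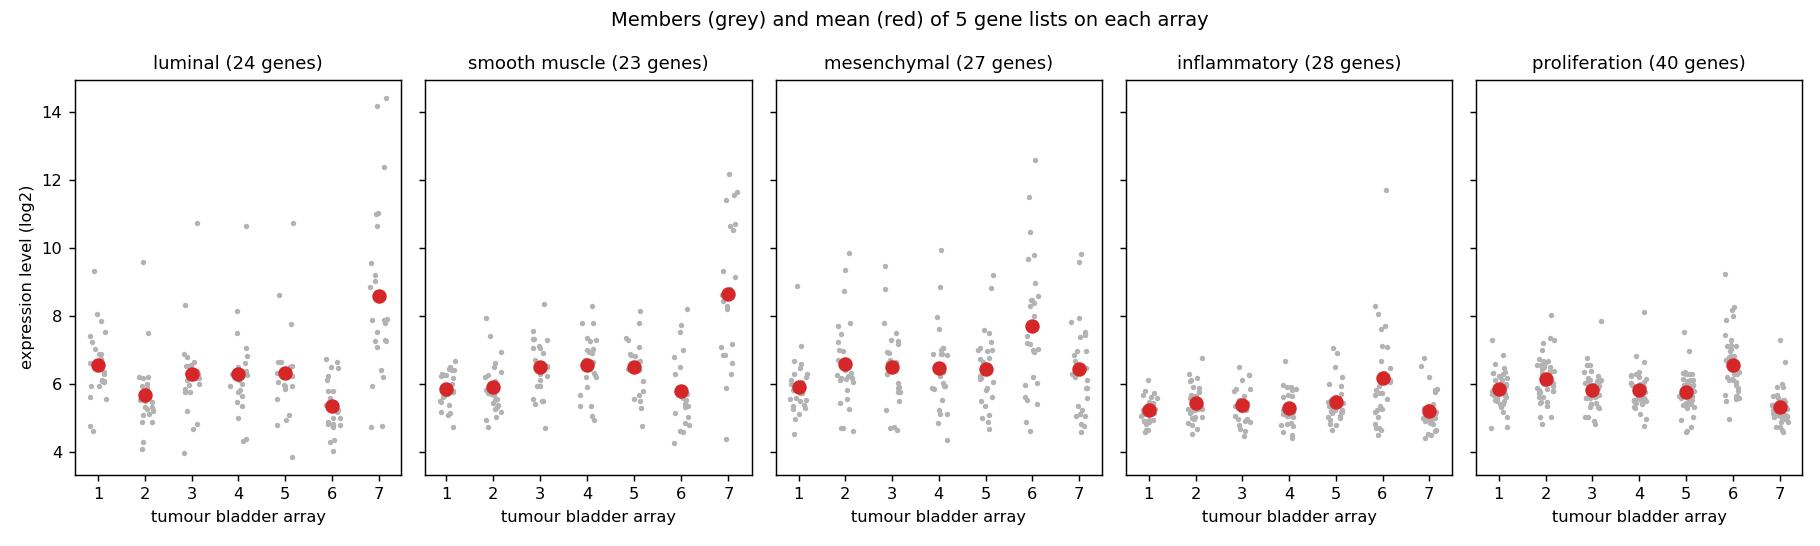
Level in log2 of every measured member (grey points) and the list mean (red points) on each of the 7 tumour bladder arrays, for the luminal, smooth muscle, mesenchymal, inflammatory and proliferation lists. Luminal and smooth muscle means peak on array 7 (8.59 and 8.66), and the other 3 peak on array 6.

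The smooth muscle list varied about as much. The mean of the 23 members was 6.54 ± 0.99 (SD, n = 7) and was at 5.86, 5.90, 6.50, 6.56, 6.49, 5.80 and 8.66. Tumour bladder 7 stood 2.10 above the next array, while tumour bladders 6, 1 and 2 lay within 0.1 of each other and the lowest of them was tumour bladder 1 after centring or quantile normalisation. Of the 16 members with a mean of at least 6, 9 were wide (56.3%, against 8.18% of all genes) and 15 were highest on tumour bladder 7 (24.0%). On that array 14 were higher by at least 1 than the median of the other 6 arrays (11.8% of all genes were). Acta2, smooth muscle actin, was at 5.76, 6.51, 7.33, 7.79, 7.78, 5.66 and 12.16. Myh11, smooth muscle myosin, was at 6.28, 5.81, 7.30, 7.29, 7.09, 5.31 and 11.63. In both, arrays 3, 4 and 5 lay between tumour bladder 7 and the low group of 1, 2 and 6. Actg2, the enteric actin of visceral muscle, was at 6.27, 5.68, 7.12, 7.35, 6.85, 5.36 and 11.55, Tagln (transgelin) at 6.67, 6.35, 7.07, 7.79, 6.89, 5.87 and 11.41, and Myl9, a regulatory light chain of myosin, at 5.79, 5.38, 6.50, 6.999, 6.82, 5.15 and 10.51. All 12 contractile members were highest on tumour bladder 7, and without that array the SD of the list mean was 0.366. Over tumour bladders 1, 2, 6 and 7 alone it was 1.40, and over 3, 4 and 5 it was 0.0377.

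Filament and anchoring genes followed: Synpo2, an actin-binding protein of the Z-line and dense bodies, was at 5.49, 5.27, 6.90, 6.54, 6.68, 4.81 and 10.63, and Des, desmin of the intermediate filaments, ran from 5.65 on tumour bladder 6 to 8.44 on tumour bladder 7. Of the 4 channel and receptor genes, Cacna1c, a calcium channel subunit, was highest on tumour bladder 6 at 7.01, and Chrm3, the muscarinic receptor that drives detrusor contraction, was highest on tumour bladder 7 at 6.84 with the others between 5.40 and 5.70. The factors Myocd and Srf, which together switch on contractile genes, were dim but both highest on tumour bladder 7, Myocd at 6.29 with 4.59 to 5.69 elsewhere and Srf at 5.87 with 5.06 to 5.70 elsewhere. The binding site of Srf is the CArG box. In promoters of the RefSeq table (build GRCm38.p6, from 250 bases before to 50 after each start, both strands searched), it was found in 2 of 19 smooth muscle genes with a promoter, Myl9 and Srf (10.5%), against 488 of 27025 genes of the table (1.81%). The Myl9 stretch is printed because Myl9 was among the genes highest on tumour bladder 7, with the CArG box in capitals and 161 bases from its first base to the start site (chr2:156775273-156775342, plus strand).

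Myl9: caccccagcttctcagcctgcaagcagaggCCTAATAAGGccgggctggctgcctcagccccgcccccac

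Mesenchymal genes were highest on tumour bladder 6. The 27 measured members (of 30) averaged 6.57 ± 0.54 (SD, n = 7) and were at 5.92, 6.57, 6.50, 6.47, 6.43, 7.70 and 6.44. All 18 members with a mean of at least 6 were highest on tumour bladder 6 (39.2% of all genes were), and 13 of them were lowest on tumour bladder 1 (47.0%). Of the 18, 12 were higher there by at least 1 than the median of the others, against 15.7% of all genes. Tumour bladder 6 was high for many genes, so that share belongs beside the list's. Without arrays 3, 4 and 5 the SD was 0.751, over those 3 it was 0.0356, and without tumour bladder 6 it was 0.237.

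Matrix genes carried most of it. Postn (periostin) was at 6.28, 7.71, 7.78, 7.96, 7.58, 12.59 and 7.93, and Fn1 (fibronectin) at 6.59, 9.35, 8.78, 8.85, 8.82, 11.48 and 9.59. In both, tumour bladder 6 stood above and tumour bladder 1 below a group of 5. Tgfbi, an extracellular protein induced by TGF-beta, was at 5.74, 6.70, 7.25, 7.07, 7.01, 9.79 and 6.96. The fibrillar collagens had another second place. Col1a1 was at 7.11, 8.73, 7.28, 7.60, 7.48, 9.66 and 6.86, Col1a2 at 6.11, 7.47, 6.70, 6.87, 6.64, 8.30 and 6.13, and Col3a1 at 6.66, 7.80, 6.93, 7.06, 6.98, 8.37 and 6.47. All 3 were second highest on tumour bladder 2, and tumour bladders 1 and 7 were their lowest. Thbs4 (thrombospondin 4), outside the list, was at 5.90, 6.69, 6.38, 6.52, 6.59, 11.31 and 5.48, and Mmp3 (stromelysin, which cuts matrix) at 5.65, 5.91, 5.89, 6.08, 5.43, 10.88 and 4.91. Each was high on a single array.

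Among the factors of epithelial-mesenchymal transition, Snai2 was highest on tumour bladder 6 at 8.001 and second on tumour bladder 7 at 7.38, with the other 5 between 6.17 and 7.18. Zeb1 and Prrx1, singled out after their values were seen, were at 8.48 and 8.58 on tumour bladder 6 against 5.99 to 7.05 and 5.11 to 6.05 elsewhere. Twist1 reached 5.52 there and stayed between 4.34 and 4.69 on the others, and Snai1 reached 6.02 there against 4.99 to 5.59. Twist2 did not follow, at 4.89 there within a range of 4.70 to 5.11. Vim (vimentin) was at 5.28, 6.40, 6.51, 6.02, 6.34, 7.41 and 5.87, and S100a4 at 7.19 on tumour bladder 6 and 6.27 to 6.60 elsewhere. Cdh11, a cadherin of mesenchyme, had a small range, 6.45 to 7.76, and Cdh2 (N-cadherin) was highest on tumour bladder 2, at 6.19. Ccn2, a matricellular target gene, stayed between 4.62 and 4.97.

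Inflammatory genes were dim. Only 4 of the 28 members had a mean of at least 6 (Ptgs2, Ccl2, Ccl7 and Nfkbia), and 1 of the 4 was wide, so the list mean of 5.46 ± 0.33 (SD, n = 7) lay near the array median and moved little except on tumour bladder 6. It was at 5.24, 5.44, 5.37, 5.30, 5.47, 6.18 and 5.20. Without tumour bladder 6 the SD was 0.109, over tumour bladders 1, 2, 6 and 7 alone 0.456, and over 3, 4 and 5 it was 0.0839. The lowest array was tumour bladder 7 as deposited and tumour bladder 1 under both other scalings. Ptgs2, the inducible cyclooxygenase of prostaglandin synthesis, was at 5.46, 5.63, 6.28, 5.86, 6.20, 11.71 and 5.83, and so 5.86 above the median of the others on 1 array. Il1b, a cytokine, was at 4.90, 5.77, 5.53, 5.34, 5.43, 7.60 and 5.01, and Il1r2, its decoy receptor, at 4.93, 5.25, 5.40, 5.20, 5.23, 8.05 and 5.29. Il6 reached 6.13 on tumour bladder 6 and 5.04 at most elsewhere. Of the chemokines, Ccl2 (which recruits monocytes) was at 5.79, 6.78, 6.49, 6.66, 6.92, 8.30 and 6.52, Cxcl2 (which recruits neutrophils) was at 6.68 on tumour bladder 6 and 4.87 to 5.68 elsewhere, and Cxcl5 at 7.10 against 5.23 to 6.18. Not every inflammatory gene followed. Tnf stayed between 4.82 and 5.33, Nos2 between 4.98 and 5.44 and Il1a between 4.41 and 5.43, with tumour bladder 1 highest in all 3. Csf2, named after its values were seen, was lowest on tumour bladder 6 at 4.64.

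Neutrophil genes were also highest on tumour bladder 6. The mean of the 18 measured members was at 5.60, 6.05, 5.74, 5.83, 5.81, 6.98 and 6.12. S100a8, a calprotectin subunit stored in neutrophils, was at 4.76, 7.78, 7.10, 8.47, 6.04, 13.56 and 9.30, and S100a9, its partner, at 5.99, 10.15, 7.72, 8.08, 8.34, 12.81 and 10.19. Both were lowest on tumour bladder 1, and S100a8 also differed among arrays 3, 4 and 5, from 6.04 to 8.47. The macrophage list ran from 5.79 on tumour bladder 1 to 6.83 on tumour bladder 6, with Lyz2 (lysozyme) at 7.21, 9.72, 9.22, 8.94, 9.50, 10.80 and 10.41 and Tyrobp, a signalling adaptor of myeloid cells, at 5.10, 6.05, 6.62, 6.73, 6.56, 8.96 and 6.42. These lists shared with the inflammatory list their peak on tumour bladder 6, but the neutrophil list was second highest on tumour bladder 7, where the inflammatory list was lowest as deposited. The part of these cells in the inflammatory values was not tested. T and NK cell genes ranged only from 5.28 to 5.49, and endothelial genes from 5.55 to 5.86.

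Proliferation genes were highest on tumour bladder 6 and lowest on tumour bladder 7. The mean of the 40 measured members (of 44) was 5.90 ± 0.38 (SD, n = 7) and was at 5.84, 6.16, 5.82, 5.82, 5.77, 6.56 and 5.33. Of the 16 members with a mean of at least 6, none was wide (8.18% of all genes were), yet 15 were highest on tumour bladder 6 (39.2%), 10 of them by at least 1 above the median of the others (15.7%), and 13 lowest on tumour bladder 7 (8.13%). Its SD was 0.522 over tumour bladders 1, 2, 6 and 7 alone and 0.0325 over 3, 4 and 5. Tumour bladder 2 was second. Mki67 (Ki-67, a marker of cycling cells) was at 6.85, 7.20, 6.10, 6.65, 6.36, 8.25 and 5.25, and Top2a (topoisomerase II alpha) at 6.20, 7.36, 6.36, 6.28, 6.33, 8.16 and 5.35. Plk1, a mitotic kinase, was at 5.93, 5.80, 5.88, 6.19, 6.12, 7.86 and 5.33.

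The S phase members, which copy DNA, and the G2 and M phase members, which divide the cell, followed the same order at both ends. Of the 18 S phase genes, 16 were highest on tumour bladder 6 and 15 lowest on tumour bladder 7, and their mean ran from 5.47 to 6.60. Of the 22 G2 and M phase genes the counts were 17 and 19, with means from 5.21 to 6.54. These counts include members with a mean below 6. Among all genes with a mean of at least 6 the shares were 39.2% and 8.13%, and shares over dimmer genes were not taken. Among the replication helicase genes, Mcm3 was at 6.13, 6.48, 6.12, 6.04, 5.91, 6.82 and 5.32 and Mcm4 at 5.99, 6.62, 6.08, 6.24, 5.98, 7.15 and 5.60. Both place tumour bladder 2 second. Other members lay near the array median throughout, such as Ccnb2, a mitotic cyclin (4.60 to 5.61).

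Many G2 and M phase genes share a promoter element, the cell cycle homology region (CHR), through which Rb-family complexes hold them off in resting cells. It was searched as TTTGAA or TTCGAA on both strands (TTTGAA reads TTCAAA on the other strand; overlapping matches were each kept). It was found in 14 of the 19 G2 and M phase genes with a RefSeq promoter (73.7%), in 2 of 16 S phase genes (12.5%), and in 5854 of 27025 genes of the table (21.7%). The match describes the letters in this window only. The stretches below are printed as examples from the G2 and M phase genes, with the element in capitals. They end at the start site or 30 bases after the element, whichever came first. Cdk1 and Prc1 were added after their values were seen (Cdk1 was at 4.93 to 6.19 and Prc1 at 5.38 to 7.30). The stretches lie, in GRCm38.p6, at chr7:135716442-135716507 (Mki67, minus strand), chr11:99024190-99024242 (Top2a, minus), chr9:70421686-70421751 (Ccnb2, minus), chr10:69352913-69352957 (Cdk1, minus) and chr7:80294416-80294475 (Prc1, plus).

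Mki67: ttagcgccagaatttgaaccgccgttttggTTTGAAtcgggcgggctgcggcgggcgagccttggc
Top2a: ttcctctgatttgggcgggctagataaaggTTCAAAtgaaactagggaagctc
Ccnb2: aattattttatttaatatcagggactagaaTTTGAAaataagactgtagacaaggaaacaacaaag
Cdk1: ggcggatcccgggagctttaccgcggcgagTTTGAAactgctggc
Prc1: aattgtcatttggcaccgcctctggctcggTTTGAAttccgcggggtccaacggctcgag

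In these stretches the first base of the element lies 98, 23, 167, 15 and 30 bases before the start site, in the order printed. The Mki67 stretch holds a further copy in lower case upstream. On tumour bladders 6 and 7, the genes printed were at their highest and lowest except that Cdk1 was lowest on tumour bladder 5, at 4.93.

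How the 5 lists moved together was read from the list means over the 7 arrays, as Pearson's r and Spearman's rho with two-sided exact permutation tests, for 10 pairs. The lists were picked with earlier results known, and the smallest p that 7 arrays allow is 0.000198. By r, 5 of 10 pairs had an unadjusted p below 0.05 and none passed 0.05 after Benjamini-Hochberg adjustment; by rho it was 4 of 10 and none. Luminal and proliferation means went in opposite directions (r = -0.89, exact p = 0.0121, adjusted p = 0.0615; rho = -0.79, exact p = 0.048), and r was -0.89 without tumour bladders 6 and 7, the 2 arrays farthest from the luminal median. Smooth muscle and proliferation were also opposed (r = -0.80, exact p = 0.0474, adjusted p = 0.0948; rho = -0.86, exact p = 0.0238; r = -0.64 without the same 2 arrays).

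Luminal and smooth muscle means were both far above the other arrays on tumour bladder 7. Their r was 0.93 (exact p = 0.0246, adjusted p = 0.0615), but rho was 0.54 (exact p = 0.236) and r was 0.26 without tumour bladders 6 and 7, so the relation rests on those samples. On tumour bladder 1 they parted: it was second for luminal genes and next to lowest for smooth muscle genes as deposited. Mesenchymal and inflammatory means gave r = 0.94 (exact p = 0.0242, adjusted p = 0.0615), rho 0.57 (exact p = 0.2) and r = 0.37 without tumour bladders 1 and 6. Inflammatory and proliferation means gave r = 0.86 (exact p = 0.0129, adjusted p = 0.0615), rho 0.54 (exact p = 0.236) and r = 0.31 without tumour bladders 6 and 7. Both rest on tumour bladder 6 for their size.

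The remaining pairs did not reach p below 0.05 by r. Luminal and mesenchymal genes had r = -0.46 (exact p = 0.192) but the most extreme rank relation of the 10, with rho = -0.89 (exact p = 0.0123, adjusted p = 0.119) and r = -0.71 without tumour bladders 6 and 7. Luminal and inflammatory genes had r = -0.63 (exact p = 0.146) and rho = -0.79 (exact p = 0.048, adjusted p = 0.12), and r was -0.64 without those arrays. Mesenchymal and proliferation genes had r = 0.73 (exact p = 0.0637), rho 0.61 (exact p = 0.167) and r = 0.79 without tumour bladders 1 and 6. Smooth muscle genes had r = -0.20 with mesenchymal (exact p = 0.474) and -0.46 with inflammatory genes (exact p = 0.188), which turned to 0.49 and 0.21 without tumour bladders 6 and 7. Since arrays 3, 4 and 5 nearly coincide, each r rests largely on 4 points. Over tumour bladders 1, 2, 6 and 7 alone, the order by luminal mean, from lowest to highest, was 6, 2, 1, 7. By proliferation mean it was exactly the reverse, and by mesenchymal mean it was 1, 7, 2, 6. These orders held under both other scalings. By smooth muscle mean the order was 6, 1, 2, 7 as deposited, 1, 2, 6, 7 with centring and 1, 6, 2, 7 with quantile normalisation. By inflammatory mean it was 7, 1, 2, 6 as deposited and 1, 7, 2, 6 under both other scalings.

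**Figure D4:**
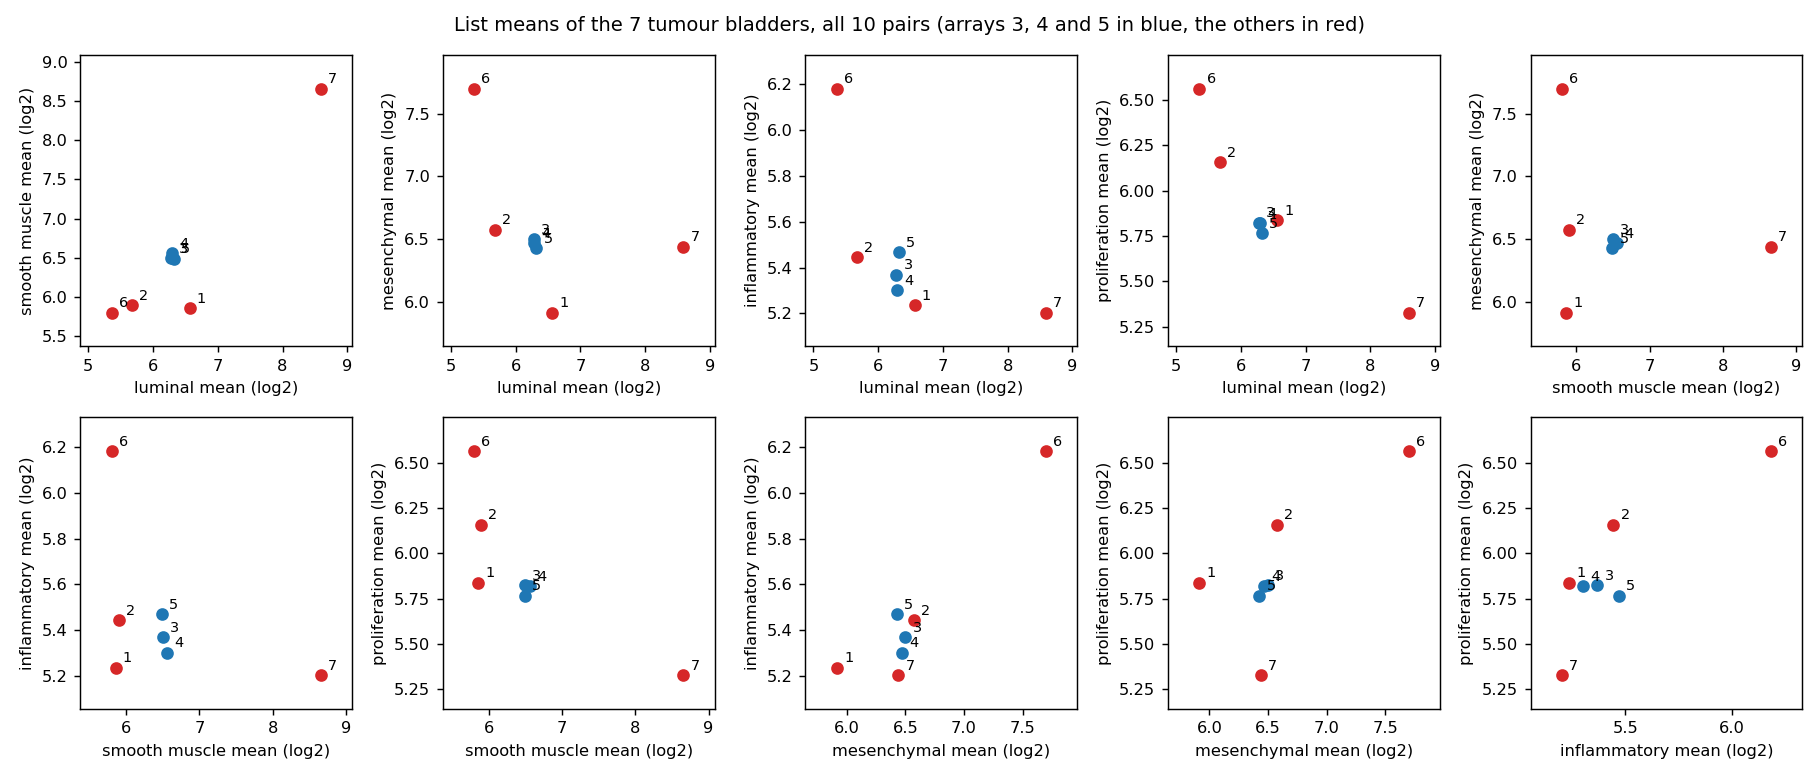
Mean level in log2 of one gene list against another for all 10 pairs of the 5 lists, with 1 point per tumour bladder array, numbered (arrays 3, 4 and 5 in blue, the others in red). The blue points nearly coincide, and arrays 6 and 7 lie at the ends of most panels.

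Principal components of the 8091 genes placed 56.3% of the variance on a first component that ran from tumour bladder 1 (score 64.8) through 2 (29.4) and arrays 3, 4 and 5 (-1.08, 0.32 and 2.66) to 7 (-41.6) and 6 (-54.5). The second held 18.8% and set tumour bladder 7 (41.4) against 6 (-35.5), with 2 at -16.0 and the rest between 1.27 and 3.85. Of named genes, S100a8, Rpl27, Cbl and S100a9 had the most negative weights on the first, the side of tumour bladders 6 and 7. Sptssb, Ivl and Upk1a had the most positive weights of named genes on the second. Across the 8091 genes, which are not independent replicates, deviations from the gene mean correlated at r = 0.55 between tumour bladders 1 and 2, the only pair above 0.2, and at -0.73 between 1 and 6. Such deviations sum to 0 over the arrays, so r below 0 is the average by construction. The share of genes that differed by at least 1 was 40.0% between tumour bladders 1 and 6, and 6.77% between 3 and 5.

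Genes of protein synthesis and respiration broadly followed the first component, though the order of tumour bladders 6 and 7 varied. The ribosomal protein list (6 of 15 members matched) was at 7.09 on tumour bladder 1, 7.71 on 2, between 7.82 and 7.99 on 3, 4 and 5, 8.82 on 6 and 8.80 on 7, and 6 of 6 members were lowest on tumour bladder 1 (47.0% of all genes were). Oxidative phosphorylation genes ran from 6.00 on tumour bladder 1 to 6.93 on 6 and 6.95 on 7, and 13 of 15 members with a mean of at least 6 were lowest on tumour bladder 1, beside the same 47.0%. Ribosomal protein pseudogenes, whose rows can share sequence with the parent genes, also had their lowest mean on tumour bladder 1. Their highest mean was on tumour bladder 7, at 10.03 against 9.69 on 6. Of 177 pseudogenes, 90 were wide (50.8%, against 8.18% of all genes). Of the same 177, 129 were lowest on tumour bladder 1 (47.0% of all genes) and 127 highest on tumour bladder 7 (24.0%). Of 37 ribosomal protein genes, 8 were wide (21.6%, beside the same 8.18%). Of these 37, 27 were lowest on tumour bladder 1 (beside 47.0%) and 25 highest on tumour bladder 7 (beside 24.0%). Their mean was 9.04 on tumour bladder 7 and 8.76 on 6. The difference between the 2 kinds was not tested. Rpl27 itself was at 7.46, 8.38, 9.76, 11.07, 9.65, 12.11 and 13.37, but its rows disagreed, and the SD was 1.24 with the mean of all its rows against 2.07. The same held for Cbl, a ubiquitin ligase, at 5.38 on tumour bladder 1 and 11.33 on 6 (SD 1.21 against 2.02). The part of this gradient in the differences of the other lists was not tested.

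On tumour bladder 1, 13.3% of the 8091 genes were lower by at least 1 than the median of the others and 5.09% higher. Among the genes reported by name, the 5 farthest above were Gsdmc2 (3.90 above), Gsdmc3 (2.70), Ivl (2.24), Cldn4 (2.09) and Jchain, the joining chain of secreted antibodies (1.78). The basal and squamous list was at 6.14 there and 6.30 on tumour bladder 7, against 5.31 to 5.66 elsewhere, and Krt5, the basal keratin, was at 8.07, 5.68, 6.87, 7.19, 6.88, 5.54 and 9.38. Farthest below among named genes were Cbl, S100a8, S100a9, Rpl27 and B2m, the light chain of class I antigen presentation, at 9.61 against 11.34 to 14.05 elsewhere.

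On tumour bladder 2, 4.13% of genes were higher by at least 1 than the median of the others. It had the high value of Cxcl13, a chemokine that attracts B cells, at 6.97, 11.88, 8.57, 8.59, 8.84, 6.43 and 9.85. Ctla2a, a protease inhibitor, was at 9.92 there against 6.89 to 8.11 elsewhere, Ltf (lactoferrin) at 7.54 against 5.62 to 5.97, and Dpt (dermatopontin of the matrix) at 9.69 against 7.03 to 8.47. The B and plasma cell list was at 5.71 on tumour bladder 1, 5.57 on tumour bladder 2, between 5.12 and 5.22 on arrays 3, 4, 5 and 7 and 4.89 on tumour bladder 6. Immunoglobulin genes were a choice made with their levels already known. Of them 16 were wide, but those with a mean of at least 6 were not counted, so no share that was wide is given. Of the 16, 11 were highest on tumour bladder 7 (45.8% of all wide genes were). Another 4 were highest on tumour bladder 1 (9.97%) and 1 on tumour bladder 2 (3.78%). Igkv4-91, a light chain segment, had the largest SD of all 8091 genes (3.57) and was at 14.87, 8.18, 5.86, 6.85, 6.15, 4.95 and 4.25. Ighm, the heavy chain of IgM, was at 8.76 on tumour bladder 1 and 5.20 to 6.76 elsewhere. Segments of this family are alike in sequence and can share signal. Farthest below the others on tumour bladder 2 among named genes were the epithelial genes Sprr2b, Ivl, Sptssb, Gstm1 and Upk3a, by 2.88 to 2.26.

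Tumour bladder 6 was also highest for glycolysis and hypoxia genes, at 7.45 against 6.28 to 6.64, with 9 of 9 members of mean at least 6 highest there (39.2% of all genes were). Pgk1 (a glycolytic kinase) was at 5.92, 6.67, 6.64, 6.66, 6.51, 8.98 and 6.72, and Slc2a1 (a glucose transporter) at 5.71, 5.72, 6.14, 6.17, 6.14, 7.68 and 5.91. Interferon response genes were at 6.50 there and lowest on tumour bladder 7, at 5.48, and Oas1a, an interferon-induced synthetase, was at 6.59, 7.45, 6.75, 6.84, 7.19, 8.27 and 5.92. The skeletal muscle list mean was highest on this array too (6.50 against 5.65 to 5.97), led by Tnnt3 at 8.28, while Acta1 was highest on tumour bladder 7 at 9.23. Only 2 of its 7 members with a mean of at least 6 were highest on tumour bladder 6, beside the same 39.2%. With dimmer members included it was 11 of 20. Few genes were lower by at least 1 on tumour bladder 7 (0.890%). The farthest below the others among named genes were Mki67, Mpeg1 (a macrophage gene), the histone genes H2bc12 and H2bc18, and Olfr912, by 1.50 down to 1.11.

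**Figure D5:**
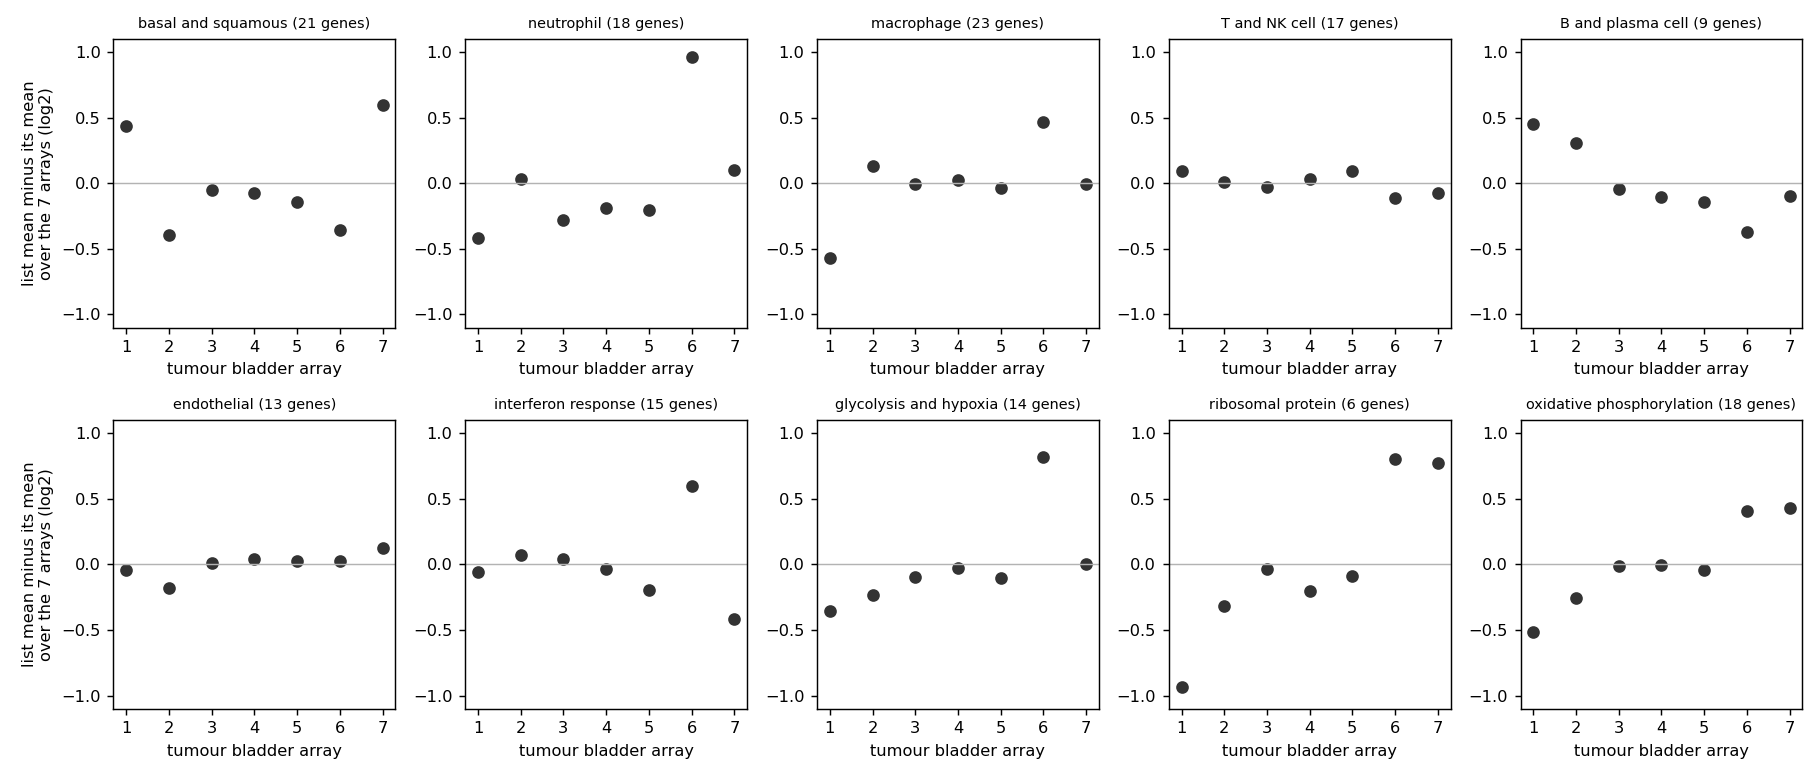
Mean of 10 further gene lists on each tumour bladder array, in log2 units relative to the list's own mean over the 7 arrays. Neutrophil, interferon and glycolysis genes peak on array 6, ribosomal and respiratory genes are lowest on array 1, and T and NK cell and endothelial genes stay close to 0.

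Arrays 3, 4 and 5 had few genes far from the others. On them, 1.19%, 1.92% and 0.779% of the 8091 genes were higher by at least 1 than the median of the other 6, and 3.03%, 1.36% and 3.45% lower. The named genes farthest from the rest there were largely mitochondrial, ribosomal and other rows: COX1 was at 12.97 on tumour bladder 3 against 14.15 to 16.76 elsewhere, B2m lay 1.85 above the others' median on tumour bladder 4, and ND2 1.89 above it on tumour bladder 5. Xist, which silences one X chromosome in female cells, was higher on all 3 than on the other 4, at 5.86, 5.77, 6.95, 7.19, 6.90, 5.43 and 5.68 on tumour bladders 1 to 7. None of these arrays was at the end of a list given above as highest or lowest among the luminal, smooth muscle, mesenchymal, inflammatory or proliferation lists.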

How the data were processed

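Per the submitters' processing notes, the authors normalised the arrays with RMA in Affymetrix Expression Console; versions and genome build are not given in the sources used here. The deposited log2 levels were used as given, for the 7 arrays of the tumour bladder group. Of 65956 rows, 30604 carried 1 gene symbol, 2146 several and 33206 none; 1050 symbols were updated through RefSeq, and for 363 genes with several rows the row of highest mean was kept. SD, list means and correlations were computed in Python 3.11.15 with numpy 2.4.6, pandas 2.3.3 and scipy 1.17.1, and tested on simulated data. Named genes are the 30 with the largest SD among nameable genes, the first 4 of each role and the 3 widest in each of the 5 lists, the 2 widest in each further list, the 5 farthest above and below on each array, Rb1 and Rbl1. Members and lists were chosen with earlier results of these data known. Levels above 16 (148 to 210 rows per array) were kept. The number of arrays, 7, limits the precision. Alternatives are in the closing section. Other groups were not used.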

Additional observations from a re-analysis of the deposited data

Results flagged for a closer look

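In groups of 7 arrays the highest or lowest value was marked when its gap to the nearest array, divided by the range, was above Dixon's 95% critical value. Chance flags about 1 in 20 groups, and the genes and lists here share their arrays, so marks on 1 array are not independent. Many of the 144 named genes were picked for a large SD or for lying far out on an array, so their marks are a description and cannot be set against that chance. Of 23 list means and 144 named genes, 9 and 46 were marked.

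On tumour bladder 7 the luminal (8.59) and smooth muscle (8.66) lists stood above the rest. Its high epithelial genes were Upk1a at 14.18, Upk2 at 9.55, Upk3a at 12.39, Krt8 at 8.84, Krt18 at 11.00, Krt19 at 7.89, Ly6d at 11.42, Plet1 at 11.05, Psca at 11.01 and Snx31 at 10.65. Its high muscle genes were Acta1 at 9.23, Acta2 at 12.16, Actg2 at 11.55, Chrm3 at 6.84, Des at 8.44, Myh11 at 11.63, Myl9 at 10.51, Pgm5 at 8.58, Synm at 9.15, Synpo2 at 10.63 and Tagln at 11.41. Ndrg2 was at 13.33 and Fabp4, a fatty acid carrier of adipocytes, at 10.56.

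On tumour bladder 6 the mesenchymal (7.70), inflammatory (6.18), neutrophil (6.98), skeletal muscle (6.50) and glycolysis (7.45) lists were above the rest, and the adipocyte (5.45) and liver (5.02) lists below. Marks were set on the deposited levels only, and this array had the lowest median. The adipocyte gap to the next array fell from 0.339 to 0.135 with centring and 0.229 with quantile normalisation. The liver gap fell from 0.431 to 0.124 and 0.188. The high inflammatory genes were Cxcl1 at 5.92, Cxcl3 at 6.46, Il1b at 7.60, Il1r2 at 8.05, Il1rn at 6.32, Il6 at 6.13, Ptgs2 at 11.71 and Tyrobp at 8.96. The high matrix and mesenchymal genes were Postn at 12.59, Tgfbi at 9.79, Thbs4 at 11.31, Mmp3 at 10.88, S100a4 at 7.19 and Twist1 at 5.52. The others were Gap43 (7.62), Pgk1 (8.98), Plk1 (7.86), Slc2a1 (7.68) and Tnnt3 (8.28).

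On tumour bladder 2 Ctla2a was at 9.92, H2-Ab1 at 7.34 and Ltf at 7.54. On tumour bladder 1 Pmp22, a myelin protein, was the lowest at 6.69.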

How the results depend on the processing

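No paired analysis was possible because no groups were compared. Leaving out each array in turn gave 497 (without tumour bladder 1) to 780 (without 4) genes with an SD of at least 1, 44.6% to 63.6% of variance on component 1, and list SDs of 0.460 to 1.13 (luminal), 0.366 to 1.09 (smooth muscle), 0.237 to 0.593 (mesenchymal), 0.109 to 0.366 (inflammatory) and 0.266 to 0.415 (proliferation). The lowest SD came without tumour bladder 7 for luminal and smooth muscle genes and without 6 for the others. The r of luminal genes ran from 0.533 to 0.998 with smooth muscle, -0.886 to -0.103 with mesenchymal, -0.845 to -0.630 with inflammatory and -0.950 to -0.881 with proliferation genes. That of smooth muscle ran from -0.455 to 0.253 with mesenchymal (turned without 6), -0.600 to -0.448 with inflammatory and -0.913 to -0.704 with proliferation genes, that of mesenchymal genes from 0.516 to 0.966 with inflammatory and 0.0854 to 0.880 with proliferation genes, and that of inflammatory with proliferation genes from 0.645 to 0.904. After adjustment, 4 of the 10 relations passed without tumour bladder 1 and 1 without tumour bladder 7. Without tumour bladders 3, 4 and 5, 1167 genes reached an SD of 1. With quantile normalisation the relations of luminal with proliferation (r = -0.92) and mesenchymal with inflammatory genes (r = 0.97) passed after adjustment (both 0.00794, exact permutation); with the median over members, luminal (r = -0.97) and smooth muscle (r = -0.87) with proliferation genes did (both 0.0288, exact permutation). With centring none of the relations passed. It gave r = -0.75 for luminal (adjusted p = 0.215, exact permutation) and -0.58 for smooth muscle with proliferation genes (0.280, exact permutation). Mesenchymal with inflammatory genes (r = 0.97) and both with proliferation genes (0.83 and 0.90) were closer than as deposited. With members of mean at least 6 none passed, and luminal with proliferation genes had r = -0.85 (adjusted p = 0.132, exact permutation). The inflammatory SD was then 0.984, over 4 genes. For the 30 widest named genes, 334 of 360 SDs under the alternatives lay within 1.5 times of the reported one. Most of the other 26 came from leaving out tumour bladder 7 or 6. Without tumour bladder 7 the SD of Acta2 fell from 2.21 to 0.967 and that of Krt18 from 1.90 to 0.548. Without tumour bladder 6 that of Ptgs2 fell from 2.22 to 0.317. Cxcl13, Gsdmc2, Gsdmc3, Rpl27, S100a9 and Upk1b stayed within 1.5 times whichever array was left out. Quantile normalisation gave 500 wide genes, of which 439 were among the 662. Dim genes limit what can be read: most inflammatory members lie near the array median.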
